A study of Mus musculus with 16 samples.

Results

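Polycomb repressive complex 2 (PRC2) is the enzyme that methylates histone H3 on lysine 27, and the genes that encode its subunits were examined here for that mark and for H3K4me3 in muscle stem cells. The 9 genes were chosen by name, not by a measured value, from 21887 protein-coding genes: Ezh1 and Ezh2 (alternative catalytic subunits), Eed and Suz12 (core subunits), Jarid2 and Aebp2 (accessory subunits of one form of the complex) and the Polycomb-like genes Phf1, Mtf2 and Phf19 (accessory subunits of the other form). This choice was made with earlier results of these data known. Per the labels, the cells were muscle stem cells of C57BL/6 mice, taken from skeletal muscle, quiescent (QSC) or activated (ASC). Each mark in each state had 2 immunoprecipitated replicates, each with an input, which makes 16 samples in all; the labels give no age, sex, sorting scheme or way of activation. The measurements were 8 lists of peaks, narrow and broad, and each stood for both replicates of its group. No value below therefore has a replicate error, no difference between states was tested, and read depth is unknown.

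PRC2 silences developmental genes by placing methyl groups on H3K27, which Polycomb repressive complex 1 (PRC1) and the subunit Eed can read. Eed binds the methylated histone and stimulates the enzyme, and Suz12 holds the complex together. EZH2 is the more active methyltransferase and is typical of dividing cells, whereas EZH1 is found widely, also in resting cells. In muscle, Ezh2 is known for repressing differentiation genes in precursors and for maintaining the satellite cell pool. H3K4me3 marks active or poised promoters.

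The sequences around 5 of the starts are shown because they span the range of H3K4me3 domain change described below: those of Ezh1, Ezh2, Eed and Suz12, and that of Phf1, whose domain was the shorter in ASC. They are RefSeq sequences of GRCm38.p6, whose coordinates are those of mm10, from 250 bases before to 50 after the start, read 5′ to 3′ along the gene. Capitals mark matches, on either strand, to the motifs searched. These were the E2F motif, written TTTCGCGC or else TTTGGCGC, the NF-Y motif CCAAT, the E-box as CACGTG or in the form CAGCTG, the GC box GGGCGG, the ETS core CCGGAA and the TATA box TATAAA.
Ezh1, chr11:101226414-101226713, minus strand: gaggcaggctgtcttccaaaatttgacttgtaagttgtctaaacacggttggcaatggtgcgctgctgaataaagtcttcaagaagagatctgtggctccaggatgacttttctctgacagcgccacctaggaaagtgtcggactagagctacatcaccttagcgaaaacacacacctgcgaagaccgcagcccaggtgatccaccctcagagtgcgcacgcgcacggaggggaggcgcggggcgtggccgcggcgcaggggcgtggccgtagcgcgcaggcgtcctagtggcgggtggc
Ezh2, chr6:47594981-47595280, minus strand: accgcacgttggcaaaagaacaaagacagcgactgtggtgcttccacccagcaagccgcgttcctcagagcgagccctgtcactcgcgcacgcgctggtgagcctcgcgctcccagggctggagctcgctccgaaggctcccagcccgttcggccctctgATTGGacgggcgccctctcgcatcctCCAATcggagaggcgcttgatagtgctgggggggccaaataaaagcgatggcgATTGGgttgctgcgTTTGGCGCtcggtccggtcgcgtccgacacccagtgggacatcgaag
Eed, chr7:89980927-89981226, minus strand: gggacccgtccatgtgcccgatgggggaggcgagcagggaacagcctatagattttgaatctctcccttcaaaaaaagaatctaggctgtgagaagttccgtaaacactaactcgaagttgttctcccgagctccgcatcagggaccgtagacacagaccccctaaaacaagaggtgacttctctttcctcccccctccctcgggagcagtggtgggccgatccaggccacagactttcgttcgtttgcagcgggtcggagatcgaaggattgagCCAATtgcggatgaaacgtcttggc
Suz12, chr11:79992856-79993155, plus strand: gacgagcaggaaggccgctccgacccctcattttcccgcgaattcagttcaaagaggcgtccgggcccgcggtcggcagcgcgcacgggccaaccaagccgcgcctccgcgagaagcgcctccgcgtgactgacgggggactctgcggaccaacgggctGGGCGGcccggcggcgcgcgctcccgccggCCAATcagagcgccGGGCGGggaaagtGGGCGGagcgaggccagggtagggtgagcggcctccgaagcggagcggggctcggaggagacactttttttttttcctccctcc
Phf1, chr17:26932877-26933176, plus strand: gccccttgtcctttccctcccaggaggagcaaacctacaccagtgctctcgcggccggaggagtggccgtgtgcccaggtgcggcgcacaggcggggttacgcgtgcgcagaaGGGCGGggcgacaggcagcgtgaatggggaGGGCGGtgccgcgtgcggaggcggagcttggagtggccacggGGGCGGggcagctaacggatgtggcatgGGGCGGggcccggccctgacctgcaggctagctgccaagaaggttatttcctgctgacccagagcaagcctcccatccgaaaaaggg

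Most members started in CpG-rich DNA. At the first annotated start (the most 5′), 7 of 9 members had at least 20 CpGs in the 300 bases, a count reached by 35.9% of 21263 promoters of protein-coding genes. That share counts every annotated start of a gene, not the first alone. Over all 13 promoters of the members the median was 23 CpGs, against 13 over all promoters. Suz12 had the most, with 41 CpGs and 71.0% GC, followed by Phf19 with 38 and Ezh2 with 31. Eed had 17 CpGs and 54.7% GC. Aebp2 has 3 annotated starts, and the first and the third had 4 CpGs each, while the second, 2246 bp into the gene, had 21. The summit of H3K4me3 at Aebp2 lay 1845 bp from the first start in QSC and 1670 bp in ASC, near the CpG-rich second start.

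Ezh2 was the only member with an E2F match, TTTGGCGC at bases 3 to 10 after the start base, a motif held by 1.05% of all promoters. It also held 3 matches to CCAAT. That motif was present in 7 of the 13 member promoters and in 38.2% of all promoters. GC boxes, GGGCGG, were present in 8 of the 13 and in 46.2% of all. Phf1 and Phf19 held 4 GC boxes each, some of those at Phf19 overlapping. Suz12 and the second start of Aebp2 held 3 each. The windows of Ezh1 and of the first Aebp2 start held none of the motifs searched.

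All 9 PRC2 genes carried H3K4me3 at their start in both states, and none carried H3K27me3 there. The H3K4me3 call needed a narrow peak within 1 kb either side of an annotated start. Over 17492 protein-coding genes with an annotated start, 55.3% were called in QSC and 57.7% in ASC. Calls in both states were found at 54.6%, in ASC only at 3.07% and in QSC only at 0.68%; no member had a call in a single state. For H3K27me3, broad peaks had to cover at least 500 bp of the window, which was the case for 22.6% of genes in QSC and 27.8% in ASC. The combination shown by the 9 members, H3K4me3 in both states and H3K27me3 in neither, was found at 46.3% of all genes, and at 84.8% of the 9549 genes with H3K4me3 in both states. The members thus had the more common of the patterns among genes with H3K4me3. Both marks at the same start were found at 4.66% of genes in QSC and 9.22% in ASC, and at no member. Only Phf19 in QSC had any H3K27me3 in the window, 68 bp of a broad peak.

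**Figure D1:**
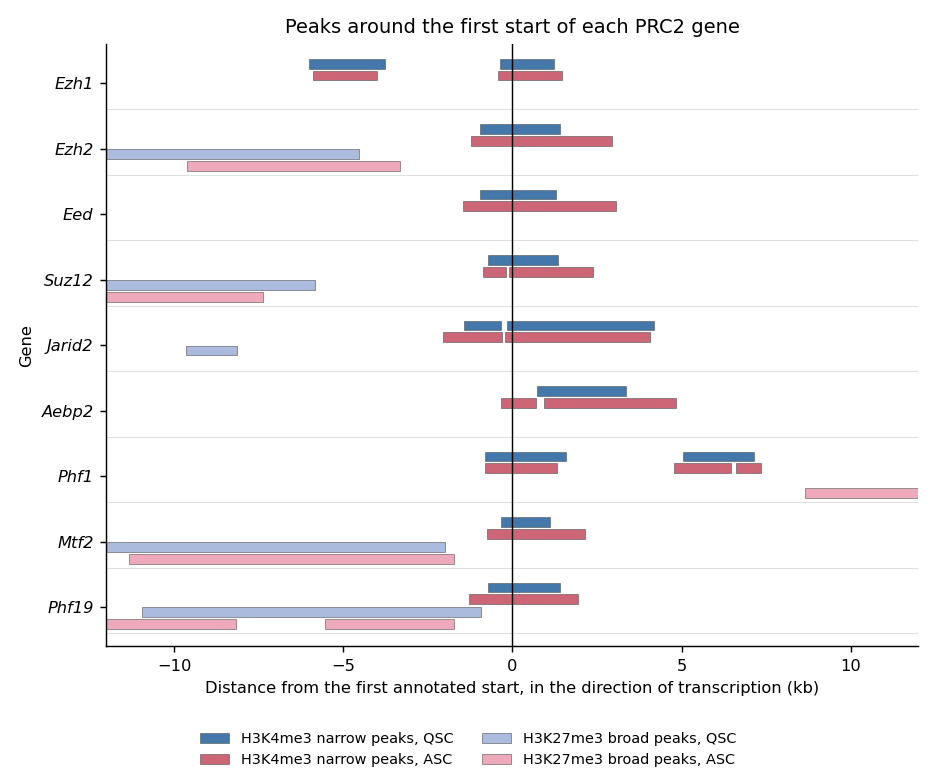
Peaks within 12 kb of the first annotated start of each gene, drawn by distance in kb along the direction of transcription, with H3K4me3 narrow peaks above and H3K27me3 broad peaks below for QSC and ASC; bars that reach an edge of the plot continue beyond it. H3K4me3 lies at the start in all 9 genes, and H3K27me3 comes closest upstream of Phf19 (933 bp in QSC, 1740 bp in ASC) and Mtf2 (1991 and 1740 bp).

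Among the catalytic subunits, the H3K4me3 domain at Ezh2 was the longer in both states and differed more between them. A domain joined narrow peaks that lay no more than 1 kb apart. Ezh2 lies on chromosome 6 (47530274 to 47595270, minus strand), and its domain measured 2356 bp in QSC (47593632 to 47595987) and 4161 bp in ASC (47592080 to 47596240). It also covered the start of the divergent long non-coding RNA gene F830010H11Rik, 179 bp away, so the peak cannot be assigned to Ezh2 alone. Ezh1, on chromosome 11 (101191115 to 101226463, minus strand), had the shorter one, 1607 bp in QSC against 1904 bp in ASC. The ratio of Ezh2 to Ezh1 domain length was 1.47 within QSC and 2.19 within ASC.

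Between the states, ASC over QSC, domain length had a log2 ratio of 0.82 at Ezh2 and 0.24 at Ezh1, where the median of the 9549 genes marked in both states was 0.55. Of those genes, 75.5% had a lower ratio than Ezh2 and 21.8% a lower ratio than Ezh1. The authors' fold enrichment at the summit, which is set only against other genes of the same list, was 16.2 at Ezh2 and 14.0 at Ezh1 among QSC peaks. Among ASC peaks it was 30.3 at Ezh2 and 19.7 at Ezh1. Ezh2 stood above 78.2% of marked genes in QSC and 78.3% in ASC, and Ezh1 above 64.5% and 42.6%.

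Ezh1 had a further H3K4me3 narrow peak upstream, between genes, in both states. It ran from 101230217 to 101232468 in QSC (2252 bp, fold 4.91) and from 101230456 to 101232359 in ASC (1904 bp, fold 4.15). Its near edge was at -3754 bp from the Ezh1 start in QSC and at -3993 bp in ASC, where values below 0 are upstream. It overlapped no start and no gene record of the annotation used.

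The core subunits Eed and Suz12 also had longer domains in ASC. Eed, on chromosome 7 (89954654 to 89980976, minus strand), had 2236 bp in QSC and 4507 bp in ASC, a log2 ratio of 1.01. This was the largest ratio of the 9 members, and 86.8% of all marked genes had a lower one. Suz12, on chromosome 11 (79993106 to 80034123, plus strand), had 2069 bp in QSC and 3253 bp in ASC, a log2 ratio of 0.65. Its ASC domain joined peaks of 662 bp and 2476 bp, and without merging the log2 ratio was 0.26. Suz12 had the highest summit fold of the members in ASC (41.9, above 98.4% of marked genes) and the second highest in QSC (20.3, above 93.3%). Eed had a fold of 12.1 in QSC (above 50.3%) and 31.1 in ASC (above 80.5%).

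The accessory genes Jarid2 and Aebp2 differed in how much their domains lengthened. Jarid2 encodes a DNA-binding subunit that helps to bring PRC2 to its targets, on chromosome 13 (44730774 to 44921643, plus strand). It had the longest domain of the members in each state, 5611 bp in QSC and 6108 bp in ASC, longer than at 98.6% and 96.9% of marked genes. The log2 ratio was only 0.12, lower than at most genes. It turned to -0.03 without merging and to -0.39 with the lists brought to equal covered bases. Aebp2, a zinc finger subunit on chromosome 6 (140622454 to 140678472, plus strand), had 2623 bp in QSC and 5161 bp in ASC, a log2 ratio of 0.98. The ASC domain included a weak separate peak over the first start (1029 bp, fold 3.43), and without it the log2 ratio was 0.57. The summit fold at Aebp2 was the highest of the members in QSC, 23.1, and 38.8 in ASC.

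The Polycomb-like genes split as well. Their proteins bind DNA rich in unmethylated CpG and the H3K36me3 mark. Mtf2, on chromosome 5 (108065660 to 108109219, plus strand), had the shortest domain of the members in QSC, 1471 bp, and 2900 bp in ASC, a log2 ratio of 0.98. Its summit fold was 14.3 in QSC (above 66.3% of marked genes) and 35.2 in ASC (above 91.1%). Its other annotated start, 12491 bp into the gene, had no narrow peak. Phf19, on chromosome 2 (34893752 to 34914353, minus strand), had 2119 and 3230 bp, a log2 ratio of 0.61. Phf1, on chromosome 17 (26933127 to 26937908, plus strand), was the single member with the shorter domain in ASC, 2372 bp in QSC and 2146 bp in ASC, a log2 ratio of -0.14. Only 5.17% of marked genes had a lower ratio. Its fold of 14.9 stood above 71.3% of marked genes in QSC, and its 16.6 above 33.3% in ASC.

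**Figure D2:**
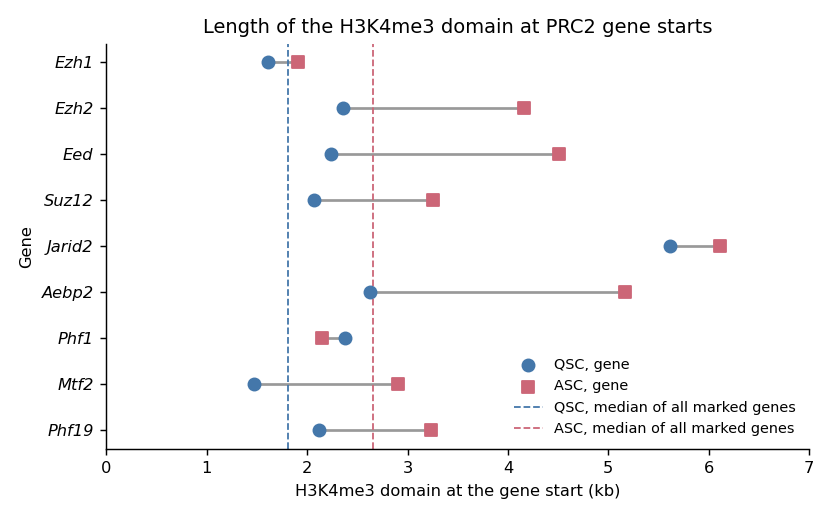
Length in kb of the H3K4me3 domain at each gene start, joined from narrow peaks no more than 1 kb apart, in QSC (circles) and ASC (squares); dashed lines are the medians of all marked genes, 1809 bp in QSC and 2656 bp in ASC. Ezh2, Eed, Suz12, Aebp2, Mtf2 and Phf19 are well to the right in ASC, Ezh1 and Jarid2 move little, and Phf1 is to the left.

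Of the 9 members, 8 had the longer domain in ASC, against a background of 91.2% of genes marked in both states. At least 1.5 times longer were 6 of 9 (Ezh2, Eed, Suz12, Aebp2, Mtf2 and Phf19), against 46.0% of genes. None was at least 1.5 times shorter, against 1.34%. The median log2 ratio was 0.65 over the members, with a range from -0.14 to 1.01, and 0.55 over all 9549 genes. Most genes thus had longer domains in the ASC list, whose narrow peaks had a median fold of 16.3, against 10.4 in QSC. The part of this difference between the lists in the members' values was not tested.

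The kind of list changed the direction at several members. With the broad lists the median log2 ratio of the members was -0.12, and 0.19 over all genes, and 4 of 9 members were longer in ASC, against 63.0% of genes. These were Ezh2, Eed, Suz12 and Aebp2. Ezh2 alone was at least 1.5 times longer, with 4078 bp against 7388 bp in ASC (log2 ratio 0.86), a size of difference found at 26.8% of genes. Mtf2 measured 6149 and 5125 bp in the broad lists (-0.26) and Phf19 5000 and 3719 bp (-0.43). At Phf1 the QSC value of 11917 bp joined broad peaks over the neighbouring gene Cuta, and the ASC value was 5804 bp. The broad H3K4me3 lists differed in make-up, with 184538 peaks in QSC and 29297 in ASC. By the numbers in the peak names, these were 50.9% and 18.1% of the peaks first called. The part of this in the reversed directions was not tested.

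**Figure D3:**
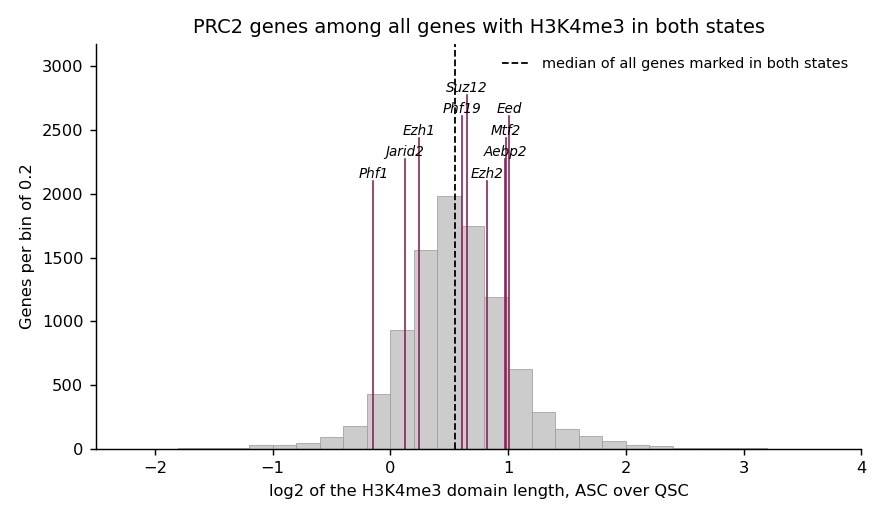
Number of genes by the log2 ratio of ASC to QSC length of the H3K4me3 domain, in bins of 0.2 (grey), for 9549 genes marked in both states, with the 9 members as vertical lines whose heights only separate the names. The members run from Phf1 (-0.14), below which lie 5.17% of genes, to Eed (1.01), below which lie 86.8%, on either side of the median of 0.55 (dashed).

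The added length lay mostly on the downstream side, inside the transcribed region, at 6 of 9 members, near the share over all marked genes. At Ezh2 the downstream edge moved outward by 1552 bp and the upstream edge by 253 bp. The values were 1769 and 502 bp at Eed, 1054 and 130 bp at Suz12, 1021 and 408 bp at Mtf2 and 1486 and 1052 bp at Aebp2. Ezh1 had small shifts of 235 bp downstream and 62 bp upstream. At Phf19 the shifts were nearly equal, 550 bp downstream and 561 bp upstream. Jarid2 and Phf1 had downstream edges that moved inward, with values of -123 and -245 bp, so that the longer Jarid2 domain came from 620 bp upstream. The downstream edge moved more at 6 of 9 members and at 70.1% of all genes marked in both states, where the median shifts were 556 bp downstream and 228 bp upstream.

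**Figure D4:**
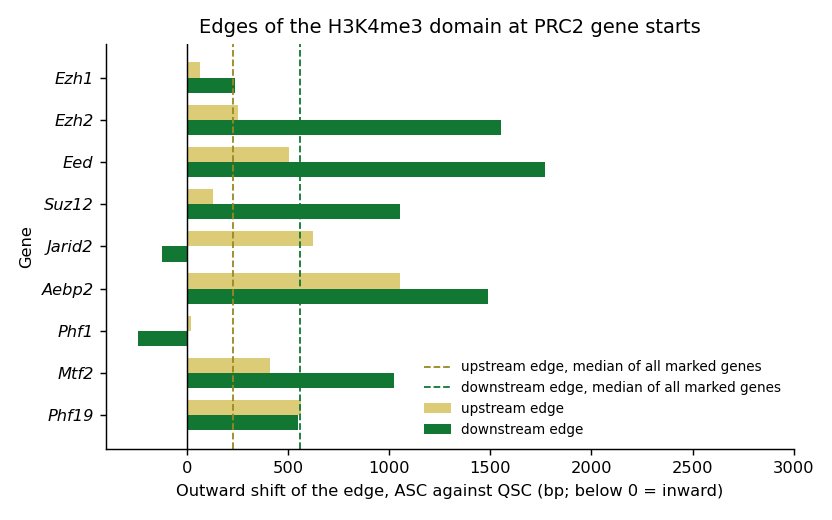
Outward shift in bp of the upstream (yellow) and downstream (green) edge of the H3K4me3 domain in ASC against QSC, with values below 0 for an inward shift and dashed lines for the medians of all marked genes (228 and 556 bp). Ezh2, Eed, Suz12, Aebp2 and Mtf2 have the long downstream bars, and those of Jarid2 and Phf1 point inward.

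Jarid2 alone had H3K4me3 narrow peaks inside its record away from its starts, and in ASC only. The peaks lay 109163 bp and 110266 bp from the first start, at 44839937 to 44840934 (998 bp, fold 8.31, -log10 q 27.1) and at 44841040 to 44841491 (452 bp, fold 3.79). The QSC narrow list had none there. The QSC broad list had a peak of 807 bp with a fold of 2.12 and a -log10 q of 0.46 over the stronger site, so a weak signal was present in that list. An internal peak in ASC only was found at 2.46% of all genes and at 9.7% of the 1866 genes with records of at least 100 kb, such as Jarid2. The reverse, in QSC only, was found at 1.13% and 3.7%. The annotation used here gives no exons, so the place within introns or exons was not assigned.

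H3K27me3 was sparse over the PRC2 genes themselves and lay mostly in their flanks. Over each record plus 10 kb either side, 7 of 9 members had some bases under a broad peak in QSC, against a background of 71.6% of genes, and 7 of 9 in ASC, against 70.0%. The median share of that region under broad peaks was 2.30% in QSC and 4.32% in ASC over the members, and 8.65% and 9.75% over all genes. Over the genes with H3K4me3 at the start in both states, as in all members, the median was 7.18% and 7.29%. At least 10% of the region was covered at 2 members in QSC (Mtf2 and Phf19), against 47.7% of genes, and at 3 in ASC (these and Phf1), against 49.6%. Narrow H3K27me3 peaks were found at 2 members in QSC (Mtf2 and Phf19), against 33.6% of genes, and at 2 in ASC (Jarid2 and Phf19), against 40.6%. Within the records alone the mark was found at 2 of 9 members in QSC (Jarid2 and Aebp2), against 39.1% of genes, and at 1 in ASC (Jarid2), against 38.6%. With q of at most 0.05, the regions of 2 of 9 members in QSC (Jarid2 and Phf19) and 3 in ASC (these and Suz12) kept any cover, close to the 22.2% and 32.2% of all genes.

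Ezh1 had no H3K27me3 peak, broad or narrow, in its region in either state, and the nearest broad peak was 34384 bp from its start in QSC and 33710 bp in ASC. At Ezh2 the region held 5717 bp in QSC and 6297 bp in ASC, all of it upstream, beginning 4524 and 3333 bp from the start. Suz12 had 4166 and 2639 bp at its upstream end, in a block that began 5835 bp from the start in QSC and 7362 bp in ASC. Eed had 872 and 1293 bp, beyond its 3′ end. None of these blocks reached the H3K4me3 domain of its gene.

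Phf19 and Mtf2 had the most H3K27me3 near their starts. In the region of Phf19, 16373 bp (40.3%) were covered in QSC and 12799 bp (31.5%) in ASC, part of it over the neighbouring gene Cutal. Its upstream block began 933 bp from the start in QSC and 1740 bp in ASC. Narrow H3K27me3 peaks of this region covered 1967 bp in QSC and 6369 bp in ASC, so broad and narrow lists gave opposite directions. All the QSC narrow peaks lay within Cutal, as did all ASC ones but a peak of 1889 bp upstream of the Phf19 start. The whole narrow lists covered 53.8 Mb in QSC and 88.4 Mb in ASC. Mtf2 had 8024 bp (12.6%) and 8275 bp (13.0%), upstream of the gene, beginning 1991 and 1740 bp from the start. Widening the start window to 2.5 kb either side added calls at Mtf2 and Phf19 in both states, 2 of 9 members against 36.9% of genes in QSC and 41.8% in ASC.

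Regions with broad cover in a single state were those of Aebp2 and Phf1. Aebp2 had a broad peak of 1745 bp inside the gene in QSC (fold 1.68, -log10 q 0.17) and none in ASC. Phf1 had none in QSC and 4284 bp in ASC (17.3% of its region, -log10 q 0.61), outside the gene itself. Both peaks fell outside the set with q of at most 0.05.

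**Figure D5:**
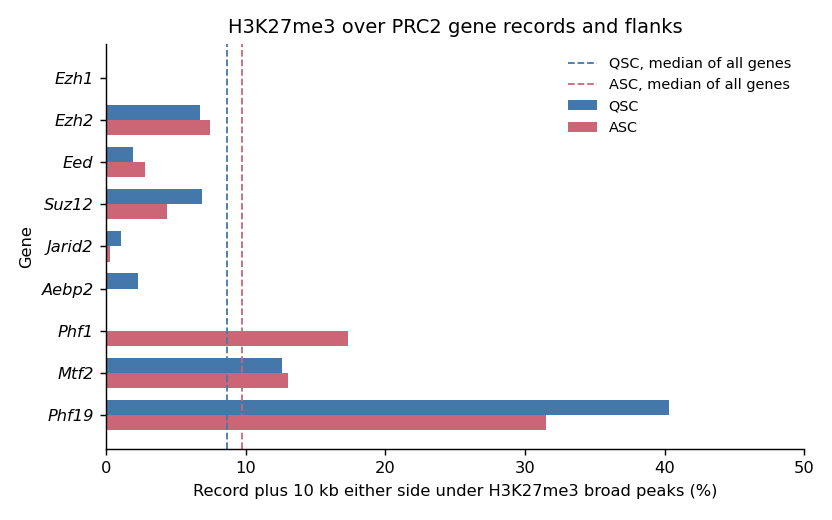
Percent of each gene record plus 10 kb either side under H3K27me3 broad peaks in QSC (blue) and ASC (red), with dashed lines for the medians of all genes (8.65% and 9.75%). Phf19 stands highest (40.3% in QSC and 31.5% in ASC), Mtf2 is at 12.6% and 13.0%, Ezh1 is at 0 in both, and Phf1 has cover in ASC only.

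Most other Polycomb genes examined also carried H3K4me3, and some carried H3K27me3. Of 18 PRC1 genes, 18 had H3K4me3 in each state, against 55.3% of all genes in QSC and 57.7% in ASC. Their median log2 ratio of domain length was 0.52, and 0.55 over all genes marked in both states. H3K27me3 was called at 4 of 18 in each state, against 22.6% of all genes in QSC and 27.8% in ASC. Pcgf1 and Cbx2 were among those called in both, Cbx8 was called in QSC only (508 bp against 487 bp in ASC, either side of the 500 bp minimum) and Phc2 in ASC only (0 and 1378 bp). Of 6 other PRC2 genes, 5 had H3K4me3 in each state, with a median log2 ratio of 0.53, and Epop, an accessory gene, had both marks in both states. Ezhip, an inhibitor of the complex, had no H3K4me3. The 3 H3K27 demethylase genes Kdm6a, Kdm6b and Uty had H3K4me3 and no H3K27me3 call in either state, with a median of 0.44. For 7 of these 27 genes no start was annotated and the windows were placed at both record ends. Epop, Pcgf1, Cbx2 and Kdm6b were among them, so a call at these may lie at the end away from the start.

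The labelled cell type was compared with marker genes. Over all genes with an annotated start, H3K4me3 was called at 55.3% in QSC and 57.7% in ASC. No start was annotated for 3 muscle stem cell, 2 endothelial, 2 immune and 3 fibro-adipogenic markers. The same held for 2 pericyte and smooth muscle markers and 4 Schwann and glial markers. For all of these the windows were placed at both record ends. H3K4me3 was present at 9 of 9 muscle stem cell markers in each state, Pax7 and Myf5 among them. It was present at 0 of 5 immune markers in each state, at 2 of 5 endothelial markers in QSC and 3 in ASC, at 1 and 3 of 5 fibro-adipogenic markers, at 3 and 2 of 5 pericyte and smooth muscle markers and at 2 of 5 Schwann and glial markers in each state. The part of other cells in the values of the PRC2 genes was not tested, and a mark on fewer cells cannot be told apart from less of the mark per cell.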

How the data were processed

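ChIP-seq of H3K4me3 and H3K27me3 in QSC and ASC was used as peak lists; replicates are pooled in each list. The submitters' processing notes name mm10, peak calling with MACS2 2.1.1, Bowtie2 2.3.2, trimming by Trimmomatic 0.36, and further SAMtools 1.3, bedtools 2.26.0 and Picard 2.9.2. Tool settings and the way replicates were combined are not stated there. Libraries were made by tagmentation of antibody-bound DNA, per the labels' protocols. Each deposited peak has a linear fold enrichment (ratio), a -log10 q-value, a display score and, in narrow lists, a summit offset, all made by the authors. Peak names show that 18.1% to 71.3% of the peaks first called were deposited, depending on the list; the filter is not stated. Starts, strands and sequences came from RefSeq tables of GRCm38.p6; 17492 of 21887 protein-coding genes had a start, and all 9 members matched. Overlaps, covers and domain lengths were computed with Python 3.11.15, numpy 2.4.6 and pandas 2.3.3, checked on simulated intervals. Input samples had no list of their own; the signal tracks were not analysed here. With a single list per group there was no test. All 9 members are named; other genes are named where a start lies in a member's region or a Polycomb gene has both marks or a call in a single state, and some genes that this rule names are not reported here. The members and lists were chosen with earlier results of these data known, and the fold of 1.5 was chosen after seeing the values. Alternatives changed the thresholds, windows, merging, list kind and list length; lists were shortened by -log10 q, where -log10 p had been planned.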

Additional observations from a re-analysis of the deposited data

How the results depend on the processing

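No paired analysis was possible because each list pools the replicates of its group, and for the same reason no replicate could be left out. H3K4me3 at all 9 starts in both states held under every alternative run, including windows at both record ends, which were added after seeing the data. With the broad lists the median log2 ratio of domain length was -0.12, 4 members were longer in ASC and 1 was at least 1.5 times longer, and the ratio was -0.26 at Mtf2 and -0.43 at Phf19; the cause was not tested. Under the other domain settings 4 to 6 members were at least 1.5 times longer, against 45.1% to 47.8% of all genes. Those longer numbered 7 to 9, against 88.6% to 91.6%. The low values, 4 and 7, came with no merging and with equal covered bases, where Jarid2 was at -0.03 and -0.39. There the median log2 ratio was 0.57 in both, against 0.54 and 0.56 over all genes. The high value, 9, came with both record ends, where Phf1 was at 0.12. That ratio set unlike domains against each other. The window at the 3′ end of Phf1 reached the joined ASC peaks over the start of Cuta, which were longer than the ASC domain at the Phf1 start. In QSC the domain taken was still that at the Phf1 start. H3K27me3 at the start was called at 1 member in QSC with 1 bp covered, and at 2 in QSC and 2 in ASC with the window of 2.5 kb. Members with any H3K27me3 in the region, and their summed cover, were 2 (3032 bp) in QSC and 2 (6697 bp) in ASC with narrow lists, 2 (7602 bp) and 3 (13748 bp) with q of at most 0.05, and 2 (2419 bp) and 1 (522 bp) over the record alone, against 7 (39097 bp) and 7 (36109 bp). The summed cover was thus higher in ASC with narrow lists or stronger peaks and lower otherwise. Most of it was at Phf19 in the first 2 cases, with 1967 bp in QSC and 6369 bp in ASC by narrow lists. With q of at most 0.05 Phf19 had 6928 and 10587 bp. The whole narrow H3K27me3 lists covered 53.8 Mb in QSC and 88.4 Mb in ASC. The part of list size in these directions was not tested. H3K4me3 narrow peaks in QSC numbered 14 in the regions and 9 over the records alone. Read depth is unknown and limits how far peak edges can be compared between lists.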

Other observations

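A short stretch of Jarid2, 138692 bp from its first start by the ASC list, was listed for both marks. H3K27me3 broad peaks lay at 44869463 to 44870136 in QSC (674 bp, fold 2.29, -log10 q 2.55) and at 44869466 to 44869987 in ASC (522 bp, fold 2.08, -log10 q 2.88). An ASC narrow H3K27me3 peak of 328 bp lay inside it, as did most of an ASC broad H3K4me3 peak of 361 bp (fold 1.93). It was the sole H3K27me3 inside any of the 9 gene records in ASC.

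The region of Phf1 held H3K4me3 of its neighbour Cuta. At the start of Cuta the ASC list had a peak of 1703 bp with a fold of 22.8 and another of 715 bp, where the QSC list had a peak of 2114 bp with a fold of 8.71. Phf1 itself had the higher fold of the pair in QSC (14.9), and Cuta in ASC (22.8 against 16.6).

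The QSC broad H3K4me3 list held 39 peaks inside the 9 member genes away from their starts, and the ASC broad list held 7, where the whole lists held 184538 and 29297 peaks. The highest -log10 q among the 39 was 0.501.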
